A study of Mus musculus with 6 samples.

Results

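In macrophages grown from bone marrow, 10 genes of interleukin 6, interleukin 4 receptor and SOCS signalling were followed, out of 17313 genes measured. They were taken by name as the cytokine Il6, the receptor chains Il6ra, Il6st, Osmr and Il4ra, the transcription factors Stat3 and Stat6, and the feedback inhibitors Socs1, Socs3 and Cish. All 10 were found in the deposited table, and 9 passed the filter on low values, which asked for a scaled count of at least 10 in at least 3 libraries. The exception was Il6. The mice called KO (3 libraries) carried floxed Hdac2 alleles together with LysM-Cre, a Cre recombinase driven by the myeloid Lyz2 locus. The mice they were set against carried the floxed alleles without Cre and are called WT (3 libraries). All mice were on the C57BL/6 background and had been injected by vein with LLC1, a mouse Lewis lung carcinoma line, and marrow was taken 20 days later to grow the macrophages. Age, culture medium and any cytokine given to the cells are not given in the sources used here. It is also not stated whether each library came from its own mouse, and the spread that p-values rest on may therefore be partly technical.

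Interleukin 6 binds its receptor chain Il6ra, and the complex recruits the shared signalling chain gp130, encoded by Il6st. Oncostatin M signals through gp130 paired with Osmr, and interleukin 4 through Il4ra paired with the common gamma chain Il2rg or with Il13ra1. Janus kinases bound to these chains phosphorylate STAT proteins, chiefly STAT3 below gp130 and STAT6 below Il4ra, which then enter the nucleus. SOCS3, SOCS1 and CISH are induced by STATs and dampen signalling from cytokine receptors, each from its own set of them. In macrophages the STAT6 branch is known for alternative activation.

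The inhibitors are known STAT targets, so bases near their RefSeq starts are shown with matches to a STAT consensus. Windows of 250 bases before to 50 bases after each RefSeq start (GRCm38.p6, the mm10 assembly) were found for all 10 genes. They were searched on both strands for TTCNNNGAA, the consensus of STAT dimers, for its wider form preferred by STAT6, with 4 free bases between TTC and GAA, and for GGGCGG, the GC box bound by Sp1. Among 32851 windows of this length 8.30% held the first, 6.95% the second and 35.7% the third. Among the 10 genes TTCNNNGAA was matched in Socs3 and Cish, and the wider form in none, which says only that these letters are not in these windows. GGGCGG was matched in Il4ra, Il6st, Socs1, Socs3, Cish, Stat3 and Osmr. In the sequences below, written 5′ to 3′ on the strand of the gene, capitals mark matches to TTCNNNGAA and GGGCGG, and they are printed because Socs3 and Cish differed most among the inhibitors and Socs1 least. The Socs3 stretch lies on the minus strand at chr11:117969452-117969616 and stops before an annotated exon. It precedes the RefSeq start but lies inside the gene as GENCODE gives it, which starts at 117970047. The Cish stretch lies on the plus strand at chr9:107296659-107296678, starts at the RefSeq start and sits inside the longer first exon that GENCODE gives. The Socs1 stretch lies on the minus strand at chr16:10785537-10785786.
Socs3: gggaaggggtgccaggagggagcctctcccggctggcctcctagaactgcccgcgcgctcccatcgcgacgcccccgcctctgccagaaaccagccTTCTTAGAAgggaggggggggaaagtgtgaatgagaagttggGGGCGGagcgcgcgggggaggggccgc
Cish: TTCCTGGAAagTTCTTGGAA
Socs1: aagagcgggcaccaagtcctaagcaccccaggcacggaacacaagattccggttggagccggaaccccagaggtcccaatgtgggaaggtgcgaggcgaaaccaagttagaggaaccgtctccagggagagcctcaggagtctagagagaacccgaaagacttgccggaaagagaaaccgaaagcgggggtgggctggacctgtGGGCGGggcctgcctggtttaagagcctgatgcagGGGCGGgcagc

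Values are scaled counts, that is reads per gene multiplied by a factor per library and rounded, with library totals from 5704313 to 5837994. The targeted gene Hdac2 was at 392, 387 and 375 scaled counts in KO 1, KO 2 and KO 3, against 534, 482 and 518 in WT 1, WT 2 and WT 3, without overlap. The WT libraries did not stand together. Xist, the RNA of the inactive X chromosome, was at 4726, 4997 and 3298 in the KO libraries and at 5243, 0 and 74 in WT 1, WT 2 and WT 3. All but WT 2 and WT 3 therefore had high Xist. Y-linked values were high in WT 2 and WT 3, lower in WT 1 and lowest in KO. Ddx3y was at 10, 0 and 0 in KO and 44, 308 and 745 in WT 1, WT 2 and WT 3. Kdm5d, Eif2s3y and Uty had the same order of KO, WT 1 and the other WT libraries. WT 1 thus held high Xist together with some Y-linked RNA. Genotype and this split overlap, so each of the 9 tested genes is also given against WT 2 and WT 3 and against WT 1 alone. Markers of macrophages (10 of 10 listed genes found) summed to 11495 to 12242 in KO and 12720 to 13685 in WT. Markers of fibroblasts and marrow stroma (15 of 15 found) summed to 25293, 23308 and 20885 in KO 1, KO 2 and KO 3, against 19636, 8565 and 8984 in WT 1, WT 2 and WT 3. In 14 of the 15 stroma genes WT 1 lay above both other WT libraries, and none was at 0 in every library. Among them the growth factor receptor Pdgfrb was at 1269, 1082 and 931 in KO and 818, 196 and 204 in WT, the matrix gene Fbn1 at 3257, 2955 and 2751 in KO against 2334, 698 and 690 in WT, and the chemokine Cxcl12 at 1699, 1094 and 413 in KO against 400, 194 and 132 in WT. Markers of other cell types were found in part. Epithelial or carcinoma markers (2 of 8 found) summed to 101, 74 and 78 in KO and 25, 10 and 2 in WT, nearly all of it Krt19, at 95, 73 and 75 in KO and 22, 10 and 1 in WT, without overlap. Dendritic cell markers (4 of 8) summed to 1203 to 1576 in KO and 1699 to 2350 in WT, also without overlap. Nearly all of it was Itgax, at 1148, 1189 and 1528 in KO and 1654, 2330 and 2087 in WT. Zbtb46 went the other way, at 51, 43 and 48 in KO and 37, 16 and 22 in WT. Endothelial markers (7 of 8) summed to 503 to 822 in KO and 822 to 1475 in WT. Most of it was Vwf, at 316, 404 and 640 in KO and 626, 1374 and 790 in WT. Of 4 endothelial genes tested, 3 had the larger mean in KO and Vwf the smaller. Mast cell and basophil markers (3 of 8 found) summed to 71 to 138 in KO and 25 to 60 in WT, B and plasma cell markers (5 of 8) to 493 to 673 in KO and 355 to 533 in WT, T and NK cell markers (3 of 10) to 37 to 56 in KO and 23 to 36 in WT, and neutrophil markers (2 of 10) to 11 to 17 in KO and 24 to 32 in WT. Their part in the results was not tested. In such bulk libraries fewer cells of a type and less RNA per cell cannot be told apart.

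Socs3, Osmr, Cish and Il4ra had higher values in every KO library than in any WT library, and Stat6 had lower ones. Il6ra, Il6st, Stat3, Socs1 and Il6 overlapped between the groups. With limma on all 6 libraries no gene of the pathway passed an adjusted p of 0.05, as was the case for 0% of the 13260 genes tested. At an unadjusted p under 0.05, 4 of the 9 tested genes of the pathway were higher in KO, beside 14.7% of all genes tested, and 1 was lower, beside 9.68%. Groups did not overlap for 4 of the 9 as higher in KO, beside 16.1% of all genes tested, and for 1 as lower, beside 13.4%.

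**Figure D1:**
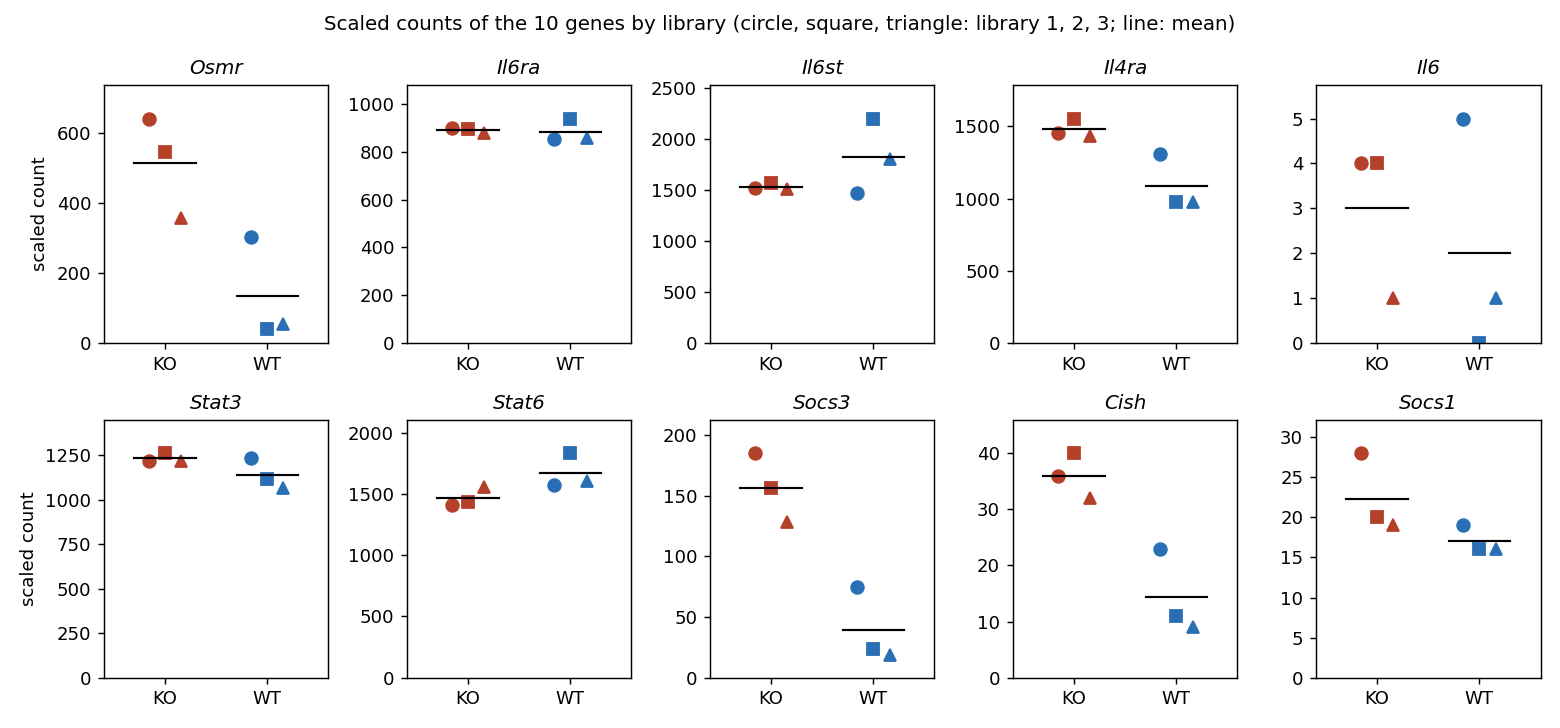
Scaled counts of the 10 genes, each in its own panel with an axis from 0, in KO libraries (left) and WT libraries (right), where a circle, a square and a triangle stand for library 1, 2 and 3 and the line for the mean. For Osmr, Socs3, Cish and Il4ra, WT 1 (blue circle) lies between the KO libraries and the other WT libraries.

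Among the receptor chains Osmr differed most. Osmr (ENSMUSG00000022146, chromosome 15, 6813577 to 6874969, minus strand, mm10), the chain that pairs with gp130 to receive oncostatin M, stood at 641, 545 and 356 scaled counts in KO 1, KO 2 and KO 3, against 303, 41 and 55 in WT 1, WT 2 and WT 3. Every KO library was above every WT library, but KO 3 was closer to WT 1 than to KO 1. The means were 514 ± 145 in KO and 133 ± 147 in WT (SD, n = 3 each), so the KO mean was 3.86 times the WT mean. On the log2(value + 1) scale, where changes of low values come out smaller than they are, the difference was 2.48 ± 0.75 (SE of the limma fit, adjusted p = 0.158). Against WT 2 and WT 3 the difference was 3.37 ± 0.27 and passed (adjusted p = 0.0011), and against WT 1 alone it was 0.72 ± 0.35 and did not (adjusted p = 0.79). In the fit without WT 1, genotype and the Xist split cannot be told apart.

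Osmr followed the order of the stroma markers in the KO libraries, highest in KO 1 and lowest in KO 3. This order was not particular to them. The first principal component of all genes tested, with 78.6% of the variance, was at -51.5, -42.5 and -19.9 in KO 1, KO 2 and KO 3. In WT 1, WT 2 and WT 3 it was at -12.7, 72 and 54.6. Per 100 scaled counts of the summed stroma list, Osmr was at 2.53, 2.34 and 1.70 in KO 1, KO 2 and KO 3, against 1.54, 0.479 and 0.612 in WT 1, WT 2 and WT 3. The groups did not overlap on this ratio, although KO 3 and WT 1 lay close together. The part of stromal RNA in the Osmr difference was not tested.

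Il4ra (ENSMUSG00000030748, chromosome 7, 125552120 to 125579474, plus strand), the ligand-binding chain for interleukin 4, stood at 1453, 1554 and 1431 scaled counts in KO 1, KO 2 and KO 3, against 1307, 978 and 978 in WT 1, WT 2 and WT 3. The KO libraries lay together above all WT libraries, and WT 1 was nearer to them than to the other WT libraries. The means were 1479 ± 65.6 in KO and 1088 ± 190 in WT (SD, n = 3 each), with a log2 difference of 0.46 ± 0.12 (SE, limma adjusted p = 0.158). It was 0.60 ± 0.06 against WT 2 and WT 3 (adjusted p = 0.0019) and 0.18 ± 0.07 against WT 1 (adjusted p = 0.79). Per 100 scaled counts of the summed macrophage markers, Il4ra was at 12.6, 13.2 and 11.7 in KO and 10.3, 7.15 and 7.66 in WT. Per 100 of the stroma list it was at 5.74, 6.67 and 6.85 in KO and 6.66, 11.4 and 10.9 in WT, where the groups overlapped and KO was lower on average. The part of stromal RNA in the Il4ra difference was not tested. An antisense transcript, Gm44876, shares 571 exonic bases with Il4ra, and its own scaled counts were at most 1 in KO and 4 in WT.

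Il6st (ENSMUSG00000021756, chromosome 13, 112464070 to 112510086, plus strand), the shared chain gp130, stood at 1517, 1566 and 1512 scaled counts in KO 1, KO 2 and KO 3, against 1468, 2202 and 1807 in WT 1, WT 2 and WT 3. WT 1 was the lowest of all 6 libraries and WT 2 and WT 3 the highest, so the groups overlapped. The log2 difference was -0.23 ± 0.14 (SE, limma adjusted p = 0.354). With WT 1 left out it was -0.38 ± 0.09 and passed as lower (adjusted p = 0.0399), and against WT 1 it turned to 0.061 ± 0.058 (adjusted p = 0.864). Osmr and Il6st, whose products pair to receive oncostatin M, thus lay on opposite sides in WT 2 and WT 3, with Osmr low and Il6st high.

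Il6ra (ENSMUSG00000027947, chromosome 3, 89864059 to 89913196, minus strand), the chain that binds interleukin 6 itself, varied least among the receptor chains, and shares 242 exonic bases with the antisense gene Gm42809. It stood at 901, 896 and 880 scaled counts in KO 1, KO 2 and KO 3, against 856, 940 and 857 in WT 1, WT 2 and WT 3. The KO libraries lay inside the WT range, and the log2 difference was 0.014 ± 0.052 (SE, limma adjusted p = 0.899). It was -0.0085 ± 0.060 against WT 2 and WT 3 and 0.060 ± 0.055 against WT 1 alone. Its ligand Il6 (chromosome 5, 30013114 to 30019981) was near the floor in all libraries, at 4, 4 and 1 scaled counts in KO and 5, 0 and 1 in WT. No fold is given for Il6 because both groups lie at or under 5 scaled counts, and a change at this level was not detectable at this depth.

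**Figure D2:**
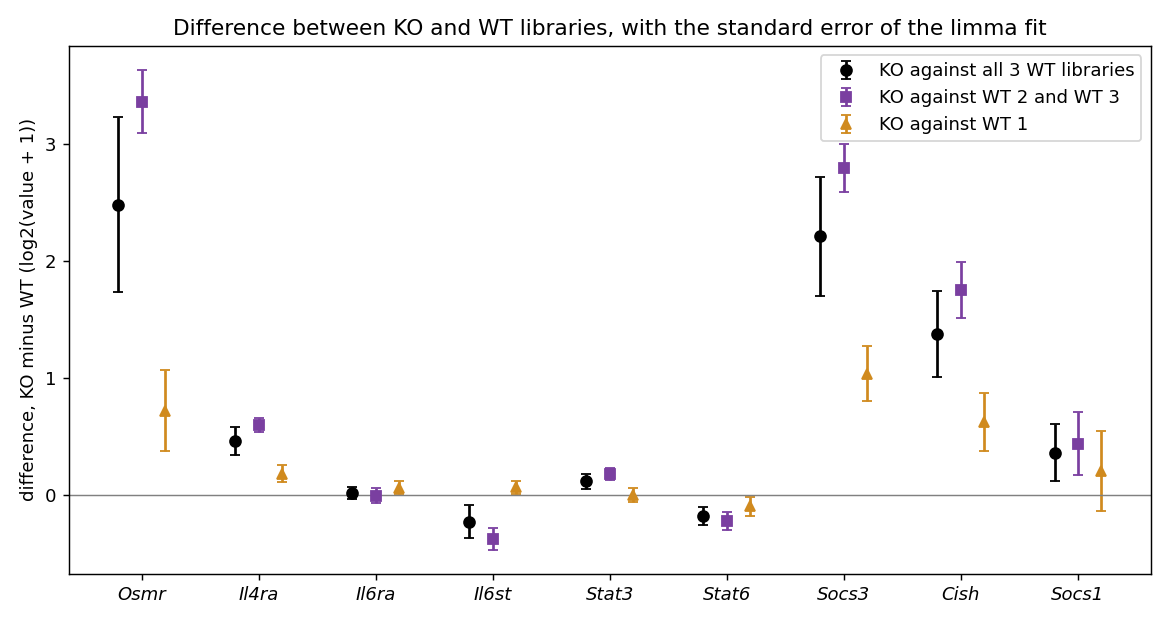
Differences between KO and WT on the log2(value + 1) scale for the 9 tested genes, with the standard error of the limma fit, for KO against all 3 WT libraries (circles), against WT 2 and WT 3 (squares) and against WT 1 alone (triangles). For Osmr the 3 values are 2.48, 3.37 and 0.72, and for Il6ra all lie close to 0.

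The STAT genes differed little. Stat6 (ENSMUSG00000002147, chromosome 10, 127642986 to 127660957, plus strand), the transcription factor of the interleukin 4 branch, stood at 1410, 1436 and 1554 scaled counts in KO 1, KO 2 and KO 3, against 1572, 1832 and 1607 in WT 1, WT 2 and WT 3. Every KO library was below every WT library, with KO 3 just below WT 1. The ratio of the KO to the WT mean was 0.878, with a log2 difference of -0.19 ± 0.08 (SE, limma adjusted p = 0.202), and no library left out brought it past the threshold. It was -0.23 ± 0.08 against WT 2 and WT 3 (adjusted p = 0.111) and -0.10 ± 0.08 against WT 1 (adjusted p = 0.853). Stat6 shares 40 exonic bases with Nab2 on the other strand, and it lies on chromosome 10 with Hdac2 and Lyz2.

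Stat3 (ENSMUSG00000004040, chromosome 11, 100885098 to 100939540, minus strand), the main STAT below gp130, stood at 1217, 1262 and 1221 scaled counts in KO 1, KO 2 and KO 3, against 1238, 1120 and 1066 in WT 1, WT 2 and WT 3. WT 1 lay among the KO libraries and the groups overlapped. The log2 difference was 0.11 ± 0.06 (SE, limma adjusted p = 0.32) and was 0.17 ± 0.05 against WT 2 and WT 3 (adjusted p = 0.0782) and -0.0056 ± 0.057 against WT 1. Stat3 shares 72 exonic bases with Stat5a on the other strand, and the sources used here do not say how strand was handled in counting.

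Among the feedback inhibitors Socs3 and Cish were higher in all KO libraries. Socs3 (ENSMUSG00000053113, chromosome 11, 117966079 to 117970047, minus strand), which binds gp130 and blocks its kinases, stood at 185, 156 and 128 scaled counts in KO 1, KO 2 and KO 3, against 75, 24 and 19 in WT 1, WT 2 and WT 3. The lowest KO library lay above the highest WT library, and WT 1 stood between the KO libraries and the other WT libraries. The means were 156 ± 28.5 in KO and 39.3 ± 31.0 in WT (SD, n = 3 each), a ratio of 3.97. The log2 difference was 2.21 ± 0.51 (SE, limma adjusted p = 0.158). Against WT 2 and WT 3 it was 2.80 ± 0.21 and passed (adjusted p = 0.00092). Against WT 1 alone it was 1.03 ± 0.24, with an unadjusted p of 0.0095 and an adjusted p of 0.79.

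Socs3 went with Osmr in the order of the KO libraries and in the place of WT 1. Per 100 scaled counts of the summed stroma list, Socs3 was at 0.731, 0.669 and 0.613 in KO 1, KO 2 and KO 3, against 0.382, 0.280 and 0.211 in WT 1, WT 2 and WT 3. The groups stayed apart on this ratio, for which the share of all genes tested was not computed. The part of stromal RNA in the Socs3 difference was not tested.

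Cish (ENSMUSG00000032578, chromosome 9, 107296026 to 107302784, plus strand), a SOCS family member induced by STAT5, was lowly expressed, at 36, 40 and 32 scaled counts in KO 1, KO 2 and KO 3, against 23, 11 and 9 in WT 1, WT 2 and WT 3. The groups did not overlap, and WT 1 was again the WT library nearest to KO. The KO mean was 2.51 times the WT mean, with a log2 difference of 1.37 ± 0.37 (SE, limma adjusted p = 0.158). Without WT 1 it was 1.75 ± 0.24 and passed (adjusted p = 0.0063), and against WT 1 it was 0.62 ± 0.25 (adjusted p = 0.79). The antisense gene Gm17041 shares 479 exonic bases with Cish and the pseudogene Gm17040 shares 261, so reads of Cish could include theirs if strand was not used. Per 100 scaled counts of the stroma list, Cish was at 0.142, 0.172 and 0.153 in KO and 0.117, 0.128 and 0.1002 in WT. This was again without overlap, and the share of all genes tested was not computed for this ratio.

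Socs1 (ENSMUSG00000038037, chromosome 16, 10782240 to 10785536, minus strand), the inhibitor known from interferon signalling, stood at 28, 20 and 19 scaled counts in KO 1, KO 2 and KO 3, against 19, 16 and 16 in WT 1, WT 2 and WT 3. KO 3 and WT 1 held the same value of 19, KO 2 lay just above them at 20 and KO 1 was highest at 28. The log2 difference was 0.36 ± 0.24 (SE, limma adjusted p = 0.406) and 0.019 under cyclic loess, a scaling that removes a shift depending on abundance. Without KO 1 it was 0.19, against WT 2 and WT 3 it was 0.44 ± 0.27, and against WT 1 it was 0.20 ± 0.34.

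**Figure D3:**
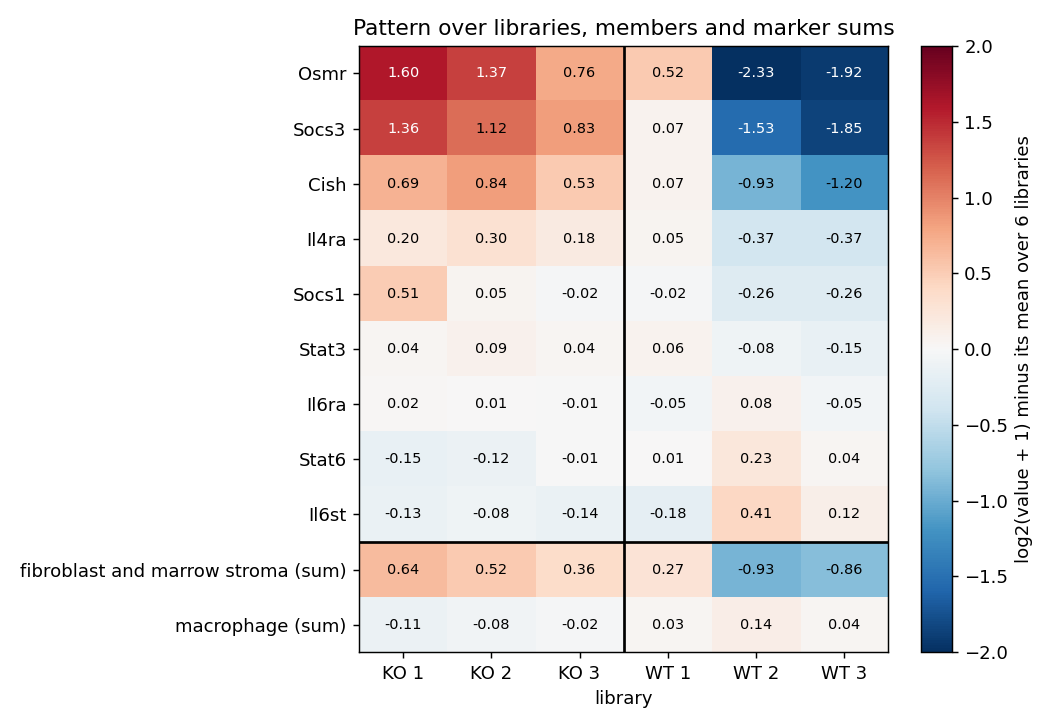
Pattern of the 9 tested genes (rows above the line) and of the summed stroma and macrophage markers (rows below it) over the 6 libraries, KO at left, as log2(value + 1) minus the mean of the row. Osmr, Socs3, Cish, Il4ra and Stat3 share the sign of the stroma sum in every library, and Stat6 shares that of the macrophage sum. Il6st is high in WT 2 at 0.41 and low in WT 1 at -0.18.

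In each of the 10 genes, WT 1 lay nearer to the KO mean than to the mean of WT 2 and WT 3 on the log2(value + 1) scale. This was also so for 66.4% of all genes tested. For Il6ra, Stat6 and Socs1 both distances were close to each other, and WT 1 was the lowest library for Il6ra. Il6, at 5 scaled counts or fewer, is not among the genes tested. Against WT 2 and WT 3, 4 of the 9 tested genes passed as higher in KO (Osmr, Socs3, Cish and Il4ra), beside 12.8% of all genes tested, and 1 passed as lower (Il6st), beside 5.07%. Against WT 1 alone none passed, as was so for 0% of all genes tested, and at an unadjusted p under 0.05 only Socs3 did, as higher, beside 5.17% of all genes tested. The median log2 difference over the 9 genes was 0.36 with all libraries, 0.44 without WT 1 and 0.18 against WT 1 alone. Over all genes tested these medians were -0.0046, -0.0069 and -0.0017. Under cyclic loess with all libraries the median of the 9 genes fell to 0.19, beside 7.1e-06 over all genes tested.

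Levels were compared between genes per kilobase of exon, as scaled counts per kilobase, where the length joins all annotated exons of a gene. It was 6419 bases for Cish, 2908 for Socs1, 12113 for Osmr and 2891 for Socs3. Before division by length, the KO mean was higher for Cish than for Socs1 (36.0 against 22.3) and for Osmr than for Socs3 (514 against 156). In KO the order within both pairs below therefore rests on annotated length. In KO the order was Stat6 at 333 ± 17.4, Il4ra at 246 ± 10.9, Il6st at 138 ± 2.69, Stat3 at 129 ± 2.61, Il6ra at 103 ± 1.27, Socs3 at 54.1 ± 9.86, Osmr at 42.4 ± 11.97, Socs1 at 7.68 ± 1.70, Cish at 5.61 ± 0.623 and Il6 at 1.24 ± 0.713 (SD, n = 3). The order of the means was the same in WT, with Stat6 at 379 ± 32.1, Il4ra at 181 ± 31.6 and Il6st at 164 ± 33.1. Neighbours in this order overlapped for Socs3 and Osmr in KO, and in WT for Il4ra and Il6st, Socs3 and Osmr, Osmr and Socs1, and Cish and Il6. Il4ra thus stood clear of Il6st in KO and overlapped with it in WT.

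The genes whose pattern over the 6 libraries was most like that of a pathway gene were sought among 11965 protein-coding genes. Likeness was the mean absolute difference of the log2(value + 1) values after each gene was centred on its mean. Nearest to Il4ra were Prkar1b at 0.039, Haus7 at 0.040 and Rnase4 at 0.041. Nearest to Il6st were Vopp1 at 0.032, the transcription factor gene Klf9 at 0.033 and Cdkl2 at 0.037. Nearest to Socs3 were the ligand gene Wnt10b at 0.067, the ephrin receptor gene Epha2 at 0.082 and the actin-associated Synpo at 0.088. Epha2 stood at 271, 260 and 204 scaled counts in KO 1, KO 2 and KO 3, against 128, 35 and 32 in WT 1, WT 2 and WT 3, with WT 1 in between as for Socs3.

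The other genes of the pathway were read from 8 lists. With all 6 libraries none of their genes passed an adjusted p of 0.05 in limma. Among ligands of the gp130 family 6 of 9 were tested, and 4 had the larger mean in KO (median log2 difference 0.19). Lif, a ligand of the gp130 and Lifr pair, was at 160, 166 and 167 scaled counts in KO and 130, 21 and 32 in WT. Lif was higher in every KO library, beside 16.1% of all genes tested, and had an unadjusted p of 0.0256 in limma. It passed against WT 2 and WT 3, beside 12.8% of all genes tested as higher. Osm, the ligand of Osmr, picked here for that role and not by the rule, was at 89, 85 and 113 in KO and 110, 82 and 92 in WT. The Osm values overlapped, with a log2 difference of 0.014 (limma adjusted p = 0.97).

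Among gp130 family receptors 4 of 5 were tested, with 2 on each side and a median of 0.18. The leukaemia inhibitory factor receptor gene Lifr was at 703, 507 and 386 scaled counts in KO and 331, 233 and 279 in WT, and the interleukin 11 receptor gene Il11ra1 at 184, 184 and 205 in KO against 219, 330 and 289 in WT. Against WT 2 and WT 3, Lifr and Cntfr passed as higher and Il11ra1 and Il27ra as lower, where Cntfr and Il27ra were named after their values were seen. These calls stand beside 12.8% of all genes tested as higher and 5.07% as lower.

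Of the partners of Il4ra, Il13ra1 was at 320, 304 and 181 scaled counts in KO and 245, 119 and 187 in WT, and Il2rg, the common gamma chain, at 225, 250 and 270 in KO against 260, 290 and 275 in WT. Both overlapped between the groups, with limma adjusted p-values of 0.337 and 0.349. Only 2 of the 5 genes of that list were tested, and Il4 and Il13 were not analysed here.

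Janus kinases and other STATs had members on both sides of 0, and none passed. The larger mean was in KO for 1 of the 4 kinases, with a median of -0.05 that turned to 0.018 under cyclic loess. Tyk2 was at 852, 825 and 893 scaled counts in KO and 897, 1017 and 947 in WT, and Jak1 at 1758, 1762 and 1749 in KO against 1815, 1867 and 1918 in WT. Both were lower in every KO library, beside 13.4% of all genes tested, and were picked for the smallest p of their list. For Tyk2, KO 3 lay just below WT 1. The larger mean was in KO for 1 of the 5 other STATs, with a median of -0.11 (-0.06 under cyclic loess). Stat2 was at 1159, 1017 and 1093 in KO against 1315, 1278 and 1276 in WT. Stat2, a STAT of interferon signalling, was lower in every KO library, beside 13.4% of all genes tested. No gene of the 2 lists passed against WT 2 and WT 3.

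Other SOCS, PIAS and phosphatase genes were balanced, with the larger mean in KO for 8 of 16 and a median of -0.011. Ptpn6, the phosphatase SHP-1, was at 1037, 1071 and 1108 scaled counts in KO and 1171, 1234 and 1189 in WT, and the ubiquitin ligase gene Cbl at 2416, 2415 and 2547 in KO against 2694, 3180 and 2849 in WT. Both were lower in every KO library, beside 13.4% of all genes tested, and were picked for the smallest p of their list. In the comparison with WT 2 and WT 3, Cbl passed as lower and Socs2, named after its values were seen, as higher, beside 5.07% and 12.8% of all genes tested. Socs2 was at 106, 88 and 114 in KO and 102, 31 and 48 in WT, so WT 1 lay within the KO range.

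Known STAT3 and STAT6 targets lay on both sides. The larger mean was in KO for 10 of 21 tested STAT3 targets (median -0.10) and for 6 of 15 tested STAT6 targets (median -0.11). Under cyclic loess the medians were -0.011 for STAT3 targets and -0.25 for STAT6 targets. The transcription factor gene Cebpd was at 200, 185 and 198 scaled counts in KO and 167, 142 and 149 in WT, and the receptor gene Tnfrsf1b at 1399, 1416 and 1595 in KO against 1648, 2012 and 1837 in WT. The histone demethylase gene Kdm6b was at 354, 292 and 343 in KO and 235, 157 and 163 in WT, and the transcription factor gene Egr2 at 252, 247 and 406 in KO against 463, 839 and 768 in WT. These 4 genes did not overlap between the groups, 1 of each pair higher and 1 lower in KO. They were picked for the smallest p of their lists, which favours such genes. Of the 21 STAT3 targets, 4 lay higher in every KO library and 3 lower, and of the 15 STAT6 targets 2 and 1. Of all genes tested, 16.1% lay higher in every KO library and 13.4% lower. Set against WT 2 and WT 3, 4 STAT3 targets passed as higher and 2 as lower, and 1 STAT6 target as higher and 3 as lower, beside the 12.8% and 5.07% of all genes tested. The names are Cebpd, Timp1, Gadd45g and Ier3, then Pim1 and Tnfrsf1b, then Kdm6b, then Pparg, Egr2 and Irf4, of which all but Cebpd, Tnfrsf1b, Kdm6b and Egr2 were named after their values were seen.

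**Figure D4:**
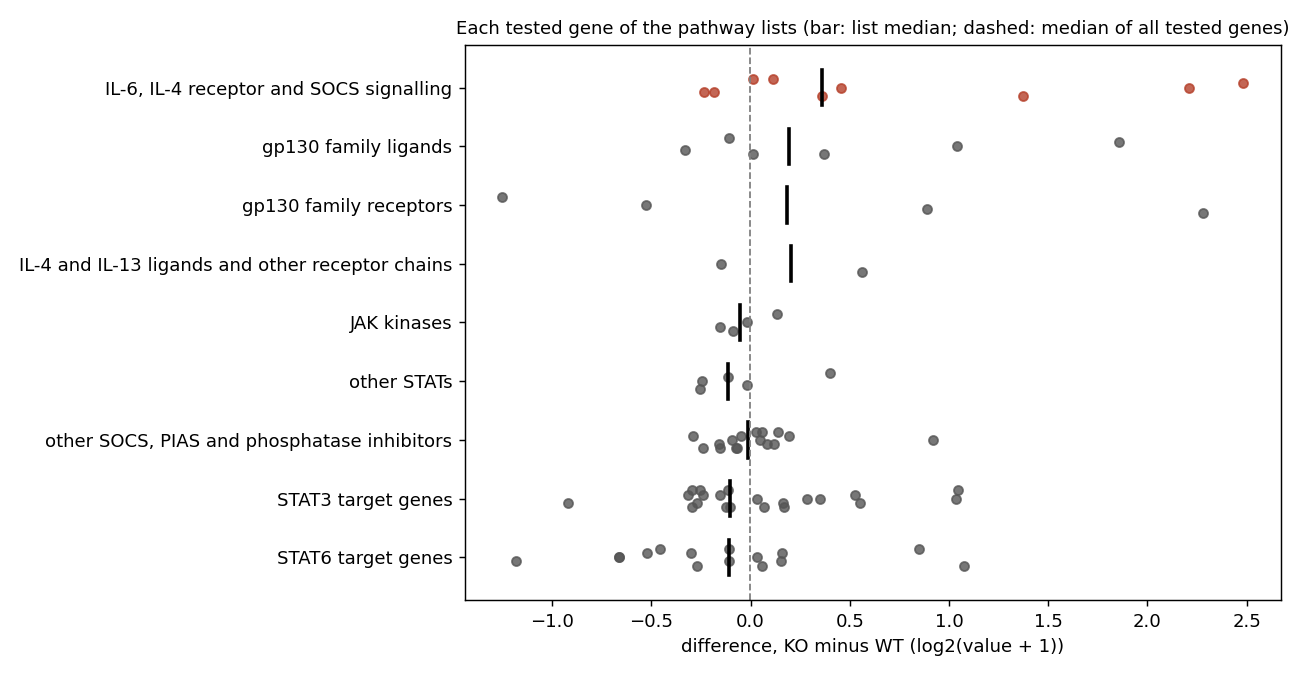
Difference between KO and WT, on the log2(value + 1) scale, of every tested gene of the 10 pathway genes (top row, red) and of the 8 lists around them, where each point is a gene, the bar the list median and the dashed line the median of all genes tested. The 9 tested genes of the top row reach from -0.23 to 2.48, while the kinase row reaches from -0.15 to 0.13.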

How the data were processed

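Messenger RNA was sequenced with a stranded kit as single reads of 72 bases, per the labels' protocols. The submitters' processing notes name the mm10 build, DESeq2 1.36.0, featureCounts 2.0.3, STAR 2.7.10a, Picard 2.27.4 and Trimmomatic 0.39, without roles or order. The deposited values are treated as a score, that is read counts the authors scaled per library and rounded to whole numbers. From gaps and doublings in the low values the factors were read as 0.932, 0.954 and 0.974 for KO 1, KO 2 and KO 3, and 1.02 and 1.10 for WT 1 and WT 2, so that about 6240000, 6090000, 5850000, 5740000 and 5290000 reads were counted. The factor of WT 3 could not be read, so its depth is unknown. As the whole reads cannot be recovered after rounding, count models and counting intervals were not used.

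The filter (10 or more in 3 or more libraries) left 13260 genes. Their log2(value + 1) values entered limma 3.58.1 (R 4.3.3) with a trend in the prior variance. Tests were two-sided, and p-values were Benjamini-Hochberg adjusted over all 13260 genes, with a threshold of 0.05. The group was the only term. The method was tested on simulated data. Exonic lengths and overlaps came from GENCODE release M21, where all 10 genes had the deposited coordinates, and promoter windows from RefSeq (GRCm38.p6). Tables were made with Python 3.11.15 and pandas 2.3.3.

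The 10 genes and all lists were chosen with earlier results of these data known. Genes named beyond the 10 were Hdac2, the 2 with the smallest p of each pathway list, the 3 most alike in pattern to Il4ra, Il6st and Socs3, stroma markers and Xist. Single markers of other cell types and Y-linked genes were named outside this rule, after their values were seen. Of the genes this rule takes, some are not reported here. Replicate numbers were not used to pair the libraries in the main fit, and whether they mark pairs is not known. The alternatives were other pseudocounts, filters, scalings and thresholds, no trend, the replicate number as a block, each library left out and WT 1 as the only WT library, where WT is assumed to vary as KO does.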

Additional observations from a re-analysis of the deposited data

How the results depend on the processing

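Of 17 alternatives, all but the omission of WT 1 gave 0 genes past the threshold, over the whole table and among the 10 genes. With 1 library left out, the count over the whole table ran from 0 to 2363 and the count among the 10 genes from 0 to 5, in both cases highest without WT 1 and 0 without any other library. The Hdac2 difference ran from -0.45 without WT 2 to -0.38 without WT 1, where it passed (adjusted p = 0.0142). Il6ra, which was not called, ran from -0.0085 without WT 1 to 0.059 without WT 2 and was -0.0076 without WT 3. Set against WT 1 alone, Il6st turned to 0.061 and Stat3 to -0.0056, neither called. Osmr, Socs3, Cish, Il4ra, Socs1 and Stat6 kept their sign under every alternative that tested them. The filter on a mean of at least 100 left Socs3, Cish and Socs1 untested.

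With the replicate number as a block 0 genes passed, and the Hdac2 difference was -0.41 (adjusted p = 0.134). Deviations of same-numbered libraries from their group means correlated across genes at 0.534, -0.364 and 0.0238 for numbers 1, 2 and 3. KO 3 and WT 2, with unlike numbers, correlated at 0.618. Deviations within a group sum to 0, so these values cannot decide whether same-numbered libraries were paired. Il6, Socs1 and Cish had the lowest mean values of the 10 genes, at most 40 scaled counts in any library. The standard errors were largest for Osmr and Socs3, at 0.75 and 0.51 on the log2 scale.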
